A study of Mus musculus with 15 samples.

Results

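The genes described here are the 9 mouse genes Nlrp4a, Nlrp4b, Nlrp4c, Nlrp4e, Nlrp4f, Nlrp9a, Nlrp9b, Nlrp9c and Nlrp14, taken by symbol. All 9 were present among the 55401 gene identifiers of the count tables, and all 9 were among the 21009 genes that passed the filter on low counts. They were measured by SMART-Seq2, in which polyadenylated RNA is copied into cDNA and amplified by PCR, in 15 libraries that each held a pool of 6 germinal vesicle oocytes of Kunming mice, an outbred stock with no allele or transgene of note. IVV oocytes had grown in the ovary and came from punctured antral follicles. IVG oocytes came from preantral follicles of prepubertal females that were cultured one by one with FSH, to day 10 (labelled C_10d) or day 6 (labelled C_6d). IVG-NT oocytes came from the same culture with neurotrophin-4 (NT-4), a ligand of the receptor TRKB, in the medium, again to day 10 (NT_10d) or day 6 (NT_6d). Each of the 5 groups had 3 libraries, numbered 2, 3 and 4 in IVV and 1, 2 and 3 elsewhere, and the study took those of a group from replicated experiments. Which libraries came from the same experiment is not given in the sources used here. The methods name the ages at which ovaries were collected without tying one of them to the sequenced IVV oocytes. In a pool of 6 oocytes, fewer contributing cells and less RNA per cell cannot be told apart.

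NLRP proteins are members of the NOD-like receptor family, built from a pyrin domain, a nucleotide-binding NACHT domain and leucine-rich repeats. Several members of the family act in innate immunity as sensors that assemble inflammasomes, whereas a reproductive branch that includes NLRP4, NLRP5, NLRP9 and NLRP14 is transcribed mainly in germ cells, accumulates in growing oocytes and is degraded after fertilization. Rodents carry several copies of NLRP4 and NLRP9 where primates have a single one, so the family is also a known case of gene duplication.

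In the GENCODE vM21 annotation of GRCm38 all 9 were protein-coding genes. Nlrp4f (ENSMUSG00000032999) lay on chromosome 13 from 65177111 to 65205977 on the minus strand, and the other 8 lay on chromosome 7. Nlrp4a (ENSMUSG00000040601, 26435113 to 26476142, plus strand) sat between Nlrp9c (ENSMUSG00000040614, 26322473 to 26403700, minus strand) and Nlrp9a (ENSMUSG00000054102, 26535023 to 26575615, plus strand). Nlrp4c (ENSMUSG00000034690, 6045161 to 6105150), Nlrp4b (ENSMUSG00000034087, 10687789 to 10730168), Nlrp9b (ENSMUSG00000060508, 19991465 to 20073306) and Nlrp4e (ENSMUSG00000045693, 23301192 to 23362277) lay between the chromosome start and this cluster, all on the plus strand. Nlrp14 (ENSMUSG00000016626) stood apart at 107166990 to 107198102 on the plus strand.

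The sequences upstream of the transcription starts are shown because some of the copies shared stretches of them and because they bear on how far copies of the family resemble each other upstream of these starts. Of the 9 genes, 8 had a start in the RefSeq promoter table of GRCm38.p6, with 10 starts in all. The 250 bases before the second start of Nlrp4a and before the starts of Nlrp4f and Nlrp9b lay inside the annotated genes. Those of Nlrp4b reached into its annotated gene. The 250 bases before 5 of these starts follow, 5′ to 3′ on the strand of the gene, with capitals for matches on either strand to the word CCAAT, known as the CCAAT box. The E-box, a word that basic helix-loop-helix factors bind and that reads CANNTG, is in capitals as well.
Nlrp4a, the second start, chr7:26435364-26435613, plus strand: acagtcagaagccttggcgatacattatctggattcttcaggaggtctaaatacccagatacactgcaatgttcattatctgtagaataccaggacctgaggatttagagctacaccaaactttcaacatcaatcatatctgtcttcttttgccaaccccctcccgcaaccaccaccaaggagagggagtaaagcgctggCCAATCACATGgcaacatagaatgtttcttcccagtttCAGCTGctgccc
Nlrp4b, the first start, chr7:10687543-10687792, plus strand: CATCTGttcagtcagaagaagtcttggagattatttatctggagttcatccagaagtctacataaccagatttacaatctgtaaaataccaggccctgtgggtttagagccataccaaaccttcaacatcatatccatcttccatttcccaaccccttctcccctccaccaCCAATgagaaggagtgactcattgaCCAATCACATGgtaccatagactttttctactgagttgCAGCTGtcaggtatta
Nlrp4c, chr7:6044911-6045160, plus strand: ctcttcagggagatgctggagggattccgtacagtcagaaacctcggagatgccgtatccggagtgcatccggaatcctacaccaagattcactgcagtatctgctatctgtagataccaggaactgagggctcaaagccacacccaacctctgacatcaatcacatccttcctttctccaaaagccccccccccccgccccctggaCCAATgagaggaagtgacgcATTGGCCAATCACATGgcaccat
Nlrp9a, chr7:26534773-26535022, plus strand: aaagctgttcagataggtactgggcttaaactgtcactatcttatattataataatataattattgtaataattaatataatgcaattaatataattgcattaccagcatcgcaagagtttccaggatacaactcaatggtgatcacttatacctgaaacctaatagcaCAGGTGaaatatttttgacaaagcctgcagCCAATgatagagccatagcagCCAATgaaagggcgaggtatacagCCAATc
Nlrp9c, chr7:26403701-26403950, minus strand: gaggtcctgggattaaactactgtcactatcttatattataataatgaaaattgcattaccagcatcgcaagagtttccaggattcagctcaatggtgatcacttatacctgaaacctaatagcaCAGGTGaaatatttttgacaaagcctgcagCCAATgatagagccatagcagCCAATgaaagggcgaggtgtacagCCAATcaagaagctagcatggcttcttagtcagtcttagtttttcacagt

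The upstream sequences of Nlrp4a, Nlrp4b and Nlrp4c shared a run of 12 bases, CCAATCACATGG, that joins a CCAAT box to an E-box. Its first base stood 50 bases before the start in Nlrp4a, 54 in Nlrp4b and 18 in Nlrp4c. The same run was found on either strand in 6 of 32851 RefSeq promoters, which belonged to 5 genes, these 3 with Dcxr and Oscp1. Nlrp9a and Nlrp9c shared a run of 106 bases that holds an E-box and a pair of CCAAT boxes and that was found upstream of no other gene in the table. Over the 250 bases before the starts printed above, 78.0% were identical between Nlrp9a and Nlrp9c, 72.8% between Nlrp4b and Nlrp4a, and 64.8% between Nlrp4c and either of these. The first start of Nlrp4a gave only 50.8% with the printed Nlrp4b and 49.2% with Nlrp4c. The second start of Nlrp4b gave 57.2% with Nlrp4c. The lowest pair, Nlrp4c with Nlrp4f, gave 43.6%. A CCAAT box, a word added after these sequences had been seen, stood in 7 of the 10 promoters (6 of the 8 genes), against 33.8% of all promoters. An E-box stood in 9 of the 10 (7 of the 8 genes), against 66.2%. These 10 include the overlapping windows of Nlrp4b and the run shared by Nlrp9a and Nlrp9c. A TATA box, TATAAA, was found for Nlrp9b alone (12.4% of all promoters). The homeobox-type words TAATTG (7.17% of all promoters), TAGTTG (5.69%) and TAATTA (4.84%) were found for Nlrp9a and Nlrp9b, for Nlrp9b and for Nlrp9a. No match to one motif overlapped a match to another in these 10 windows, and a match describes the letters only.

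**Figure D1:**
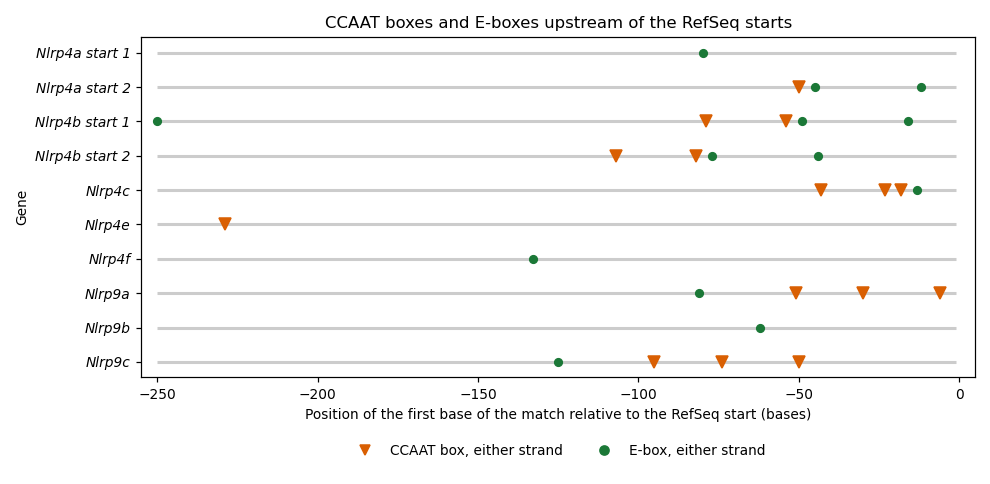
Position of CCAAT boxes (triangles) and E-boxes (circles) on either strand in the 250 bases before each of the 10 RefSeq starts of 8 genes, in bases relative to the start. A CCAAT box was followed closely by an E-box in Nlrp4a, Nlrp4b and Nlrp4c, and 3 CCAAT boxes lay in a like spacing in Nlrp9a and Nlrp9c.

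A library held between 19033272 and 55593251 counts, except for replicates 1 and 2 of IVG-NT day 6, which were shallow at 5954262 and 7125348. The libraries were of 2 kinds that cross the groups, by their share of counts on CT010467.1, which is annotated as rRNA. This share was 12.51% to 37.9% in 9 libraries, called rRNA-rich here, and 0.187% to 0.714% in the other 6, called rRNA-poor, with a limit of 5% set after the shares had been seen. Each in vitro group had its replicate 3 as the only rRNA-poor library, whereas in IVV replicate 3 was the only rRNA-rich one. All 12 oocyte markers were detected in every library. The 12 granulosa cell markers summed to 49.2 to 399 normalized CPM against 11537 to 22444 for the oocyte markers, and the 6 macrophage markers summed to 53.1 in IVG-NT day 6 replicate 1 and to at most 15.8 in any other library. Their part in the results below was not tested.

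Per length of exon, Nlrp14 was the most abundant of the 9 genes and Nlrp4c the least. Nlrp14, an oocyte protein needed for development of the early embryo, had 505 ± 127 FPKM (SD, n = 3 here and for each group below) in IVV, 548 ± 146 in IVG day 10, 472 ± 220 in IVG-NT day 10, 693 ± 204 in IVG day 6 and, for IVG-NT day 6, 305 ± 101. It ranked highest in 13 of 15 libraries and Nlrp4f in the other 2. Nlrp4f, a maternal factor of preimplantation development, came next in every group, with 213 ± 205, 397 ± 245, 401 ± 233, 458 ± 264 and 270.5 ± 63.5 FPKM in the same order of groups. Nlrp4a, a further NLRP4 copy, followed with group means from 100.4 to 299 FPKM. Nlrp9b, which is known outside the ovary as an inflammasome sensor of intestinal cells, had group means from 51.3 to 122 FPKM, and Nlrp9c from 43.2 to 91.8. Nlrp4b (37.2 to 58.5), Nlrp9a (20.2 to 52.8) and Nlrp4e (11.2 to 42.3), whose depletion is known to arrest early embryos, lay lower and close together. Nlrp4c had 4.45 to 9.37 FPKM.

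Many neighbours in this order did not differ beyond their spread. Taking the difference of 2 group means against the larger of their SDs, Nlrp14 stood beyond Nlrp4f in IVV only, and Nlrp4f stood beyond Nlrp4a in IVG-NT day 6 only. Nlrp4c stood beyond its neighbour in IVV, IVG day 10 and IVG-NT day 10 but within the spread in both day 6 groups. Within libraries, Nlrp14 exceeded Nlrp4a in 15 of 15 and Nlrp4f exceeded Nlrp4a in 14 of 15. Lower in the order the ranks changed between libraries, with Nlrp9b above Nlrp9c in 11 of 15, Nlrp9c above Nlrp4b in 8, Nlrp9a above Nlrp4b in 6 and Nlrp4e above Nlrp4b in 5. Together the 9 genes took 0.267% to 0.888% of all counts of a library.

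The normalized CPM of single libraries show the spread behind these means, given here by replicate in the order of the labels. Nlrp4a had 378, 1703 and 415 in IVV, 2211, 1716 and 473 in IVG day 10, 2057, 2158 and 384 with NT-4 at day 10, 1953, 2170 and 487 in IVG day 6, and 451, 687 and 398 in IVG-NT day 6. The high values of the first 4 groups were those of the rRNA-rich libraries, and in IVG-NT day 6 the highest library had 687. Nlrp4f had 313, 2009 and 340 in IVV, 2431, 1920 and 362 in IVG day 10, 2292, 2538 and 475 with NT-4 at day 10, 2496, 2814 and 487 in IVG day 6, and 1285, 1467 and 626 in IVG-NT day 6. It had the same layout of high and low libraries as Nlrp4a, with a smaller drop in the shallow IVG-NT day 6 libraries. Nlrp14 had 1371, 2658 and 1342 in IVV, 2527, 2146 and 1078 in IVG day 10, 2766, 2170 and 724 with NT-4 at day 10, 3178, 3189 and 1359 in IVG day 6, and 941, 1851 and 712 in IVG-NT day 6. Libraries of every pair of groups overlapped for these 3 genes.

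Nlrp4b had 93.6, 322 and 104 in IVV and 374, 316 and 102 in IVG-NT day 6, and its other libraries lay between 65.9 and 421. Nlrp4c, the least abundant gene, had 6.35, 45.9 and 5.89 in IVV and 74.8, 42.6 and 7.22 in IVG-NT day 6. For both genes the shallow IVG-NT day 6 libraries lay above every rRNA-poor library. Nlrp9b had 357, 630 and 356 in IVV, 525, 450 and 285 in IVG day 10, 530, 688 and 199 with NT-4 at day 10, 647, 454 and 300.1 in IVG day 6, and 216, 170 and 193 in IVG-NT day 6. The IVG-NT day 6 libraries were the lowest of any group except for the IVG-NT day 10 replicate 3, which lay among them.

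Nlrp9a, Nlrp9c and Nlrp4e were uneven between libraries of 1 group in another way. Nlrp9a had 184, 161 and 182 in IVV, 205, 139 and 134 in IVG day 6, and 24.6, 11.1 and 147 in IVG-NT day 6. Nlrp9c had 622, 254 and 635 in IVV, 175, 309 and 417 in IVG day 6, and 280, 4.003 and 414 in IVG-NT day 6, where replicate 2 held 23 counts and lay 103-fold below replicate 3. Nlrp4e had 134, 301 and 11.6 in IVG day 6 and 65.2, 0 and 43.6 in IVG-NT day 6. Its 0 was a count of 0 among 7125348, which allows up to 3 counts or 0.522 normalized CPM, and this covers counting error only. In IVG day 6 the highest and lowest libraries of Nlrp4e were 25.9-fold apart, and both were deeply covered, with 5837 and 788 counts. At day 10 these 3 genes were within 3.85-fold between libraries of a group.

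**Figure D2:**
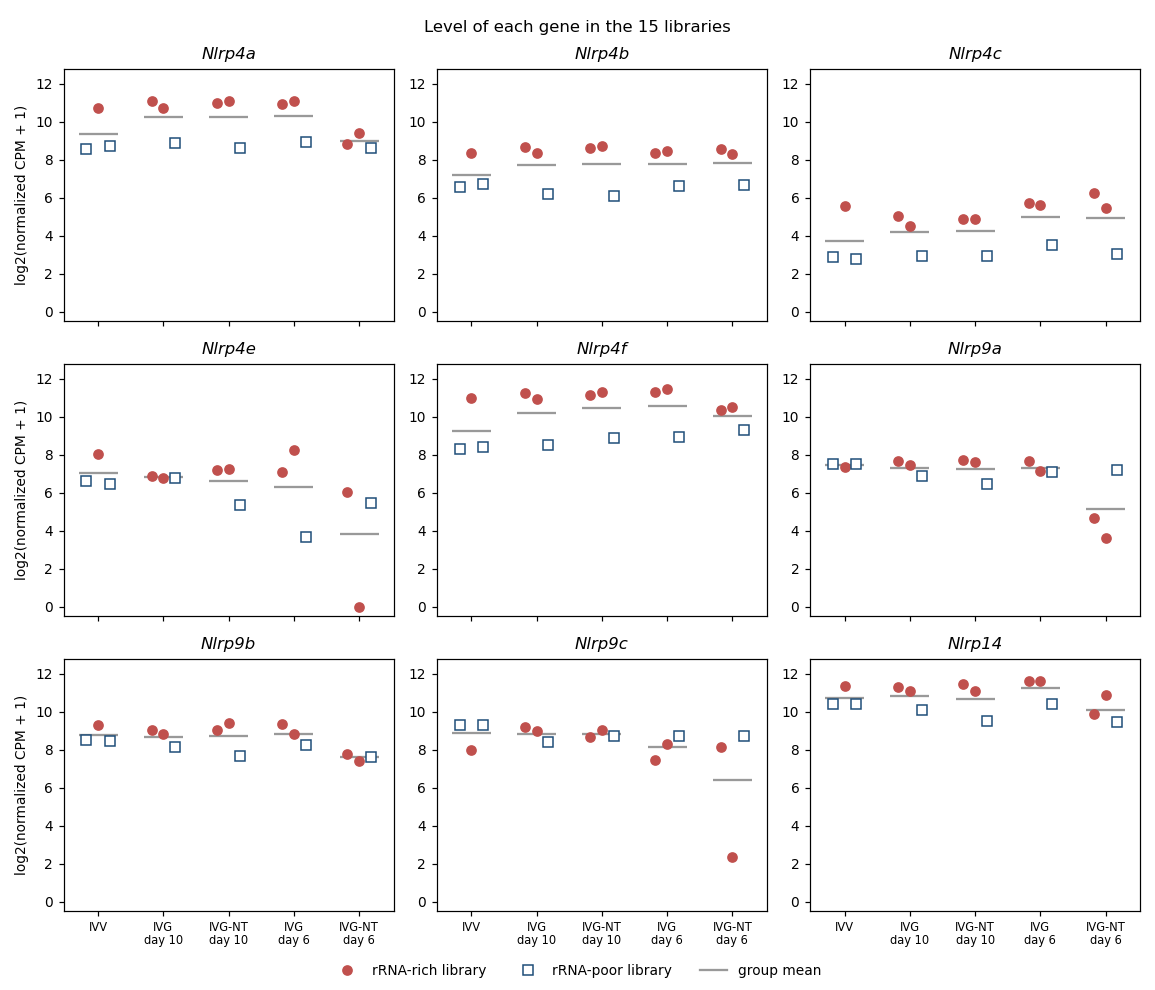
Level of each gene in the 15 libraries as log2(normalized CPM + 1), by group, with filled circles for rRNA-rich libraries, open squares for rRNA-poor libraries and a grey line for the mean of each group of 3 on this log scale. For Nlrp4a, Nlrp4b, Nlrp4c, Nlrp4f and Nlrp14 the rRNA-rich libraries lay above the rRNA-poor library or libraries of the same group in all 5 groups, and Nlrp4e was at 0 in 1 library of IVG-NT day 6.

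Most of the family was higher in the rRNA-rich libraries. In all 5 groups every rRNA-rich library exceeded every rRNA-poor one for Nlrp4a, Nlrp4b, Nlrp4c, Nlrp4f and Nlrp14, and the ratio of the means ran from 1.43 to 5.48 for Nlrp4a, from 3.27 to 6.13 for Nlrp4b, from 4.03 to 8.13 for Nlrp4c, from 2.20 to 6.15 for Nlrp4f and from 1.96 to 3.41 for Nlrp14. Nlrp4e and Nlrp9b did so in 4 groups and Nlrp9a in 3, with the opposite order of Nlrp9a in the other 2. Nlrp9c went the other way in 3 of 5 groups, with a ratio from 0.344 to 1.62, and in 1 group it went the same way. The share of all genes tested with such an order within groups was not counted, so these counts have no background. Over all libraries, 9 rRNA-rich against 6 rRNA-poor, 3 of the 9 genes did not overlap, Nlrp4b, Nlrp4c and Nlrp4f, each higher in the rRNA-rich libraries. Of all genes tested, 13.2% did not overlap and 2.88% were higher without overlap. The ratio of the medians was 6.42 for Nlrp4c, 5.48 for Nlrp4f, 4.81 for Nlrp4a, 3.67 for Nlrp4b, 2.09 for Nlrp14, 1.24 for Nlrp9a and 0.732 for Nlrp9c. Without the shallow IVG-NT day 6 libraries, 7 of the 9 genes lay wholly above in the rRNA-rich libraries, all but Nlrp9a and Nlrp9c, beside 11.1% of all genes tested (24.8% in either direction). Kinds of library are a property of the data and not a group of the study, and what set them apart was not tested.

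**Figure D3:**
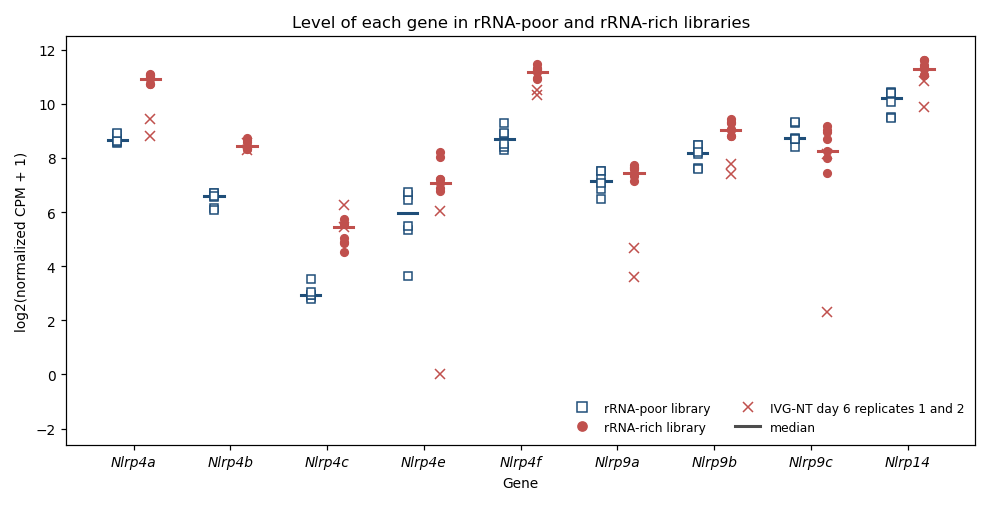
Level of each gene as log2(normalized CPM + 1) in the 6 rRNA-poor libraries (open squares) and the 9 rRNA-rich libraries (filled circles, with crosses for the shallow IVG-NT day 6 replicates 1 and 2), with a bar at each median. Nlrp4b, Nlrp4c and Nlrp4f did not overlap between the kinds, and Nlrp9a and Nlrp9c overlapped with or without the crosses.

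The make-up of the family followed the kind of library as well. As a share of the summed FPKM of the 9 genes, the 5 NLRP4 copies made up 24.7% to 43.5% in the rRNA-poor libraries and 50.3% to 59.1% in the rRNA-rich ones. The 3 NLRP9 copies made up 22.9% to 29.8% in the rRNA-poor libraries and 4.20% to 15.03% in the rRNA-rich ones, so that the NLRP4 sum was 0.830 to 1.72 times the NLRP9 sum in the former and 3.77 to 12.2 times in the latter. Nlrp14 made up 28.0% to 46.4% with overlap between the kinds. Among the 6 rRNA-poor libraries the NLRP4 share was 24.7% and 26.0% for IVV. It was 33.8% and 30.7% for IVG at day 10 and day 6, and 39.3% and 43.5% for IVG-NT. With 1 rRNA-poor library in each in vitro group this order has no replicate check. The summed level was 1230 ± 466 FPKM in IVV, 1586 ± 612 in IVG day 10, 1468 ± 710 in IVG-NT day 10, 1766 ± 664 in IVG day 6 and, for IVG-NT day 6, 865 ± 79.7.

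**Figure D4:**
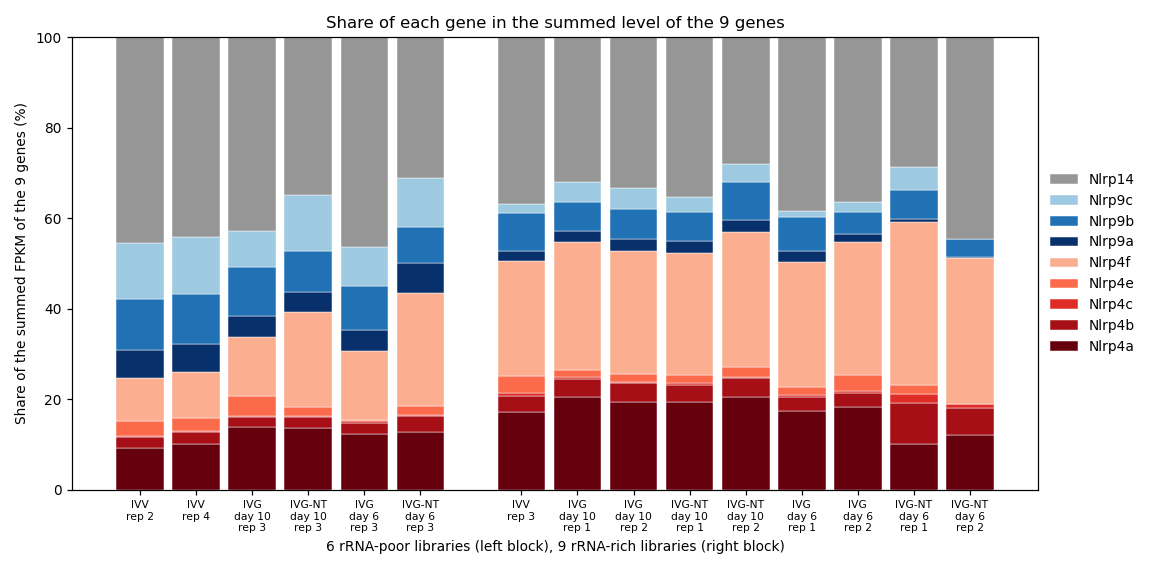
Share of each gene in the summed FPKM of the 9 genes, in percent, 1 bar per library, with NLRP4 copies in reds, NLRP9 copies in blues and Nlrp14 in grey. The NLRP4 copies reached 43.5% at most in the rRNA-poor libraries of the left block and at least 50.3% in the rRNA-rich libraries of the right block.

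The first comparison asks whether oocytes grown in vitro to day 10 differ from IVV oocytes. For IVG day 10 against IVV, 0 of the 9 genes passed the study's threshold for a differentially expressed gene (DEG), a log2 fold change beyond 1 with an unadjusted p under 0.05 (edgeR's quasi-likelihood test), where 2.76% of all genes tested did. No gene of the 9 had an adjusted p under 0.05, and neither did any other of the 21009 genes in edgeR's test. At an unadjusted p under 0.05 there were 0 of the 9 by edgeR and 0 by DESeq2. The highest fold changes were those of Nlrp4f and Nlrp4a, both at a log2 of 0.82 (SE 0.89 and 0.80), and Nlrp4b at 0.63 (SE 0.85), and the other 6 lay from -0.41 to 0.10. The median over the 9 was 0.07 and that over all genes tested was -0.20. Libraries of both groups overlapped for all 9 genes, whereas 11.9% of all genes tested did not overlap.

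Within kinds of library the differences from IVV were smaller for these 3 genes. Among rRNA-rich libraries only, 2 of IVG day 10 against 1 of IVV, Nlrp4f came to a log2 of 0.14, Nlrp4a to 0.23 and Nlrp4b to 0.21, and 0 of the 9 genes passed the threshold (1.68% of all genes tested). The single IVV library of that fit is assumed to vary like the other groups, which supply the spread. Among rRNA-poor libraries, 1 against 2, the log2 ratio was 0.15 for Nlrp4f, 0.26 for Nlrp4a and -0.48 for Nlrp4b. Nlrp9c had opposite directions in the kinds. Its rRNA-poor library of IVG day 10 had 334 normalized CPM against 622 and 635 in IVV, and its rRNA-rich libraries had 583 and 502 against 254. The calls changed without IVV replicate 3, the only rRNA-rich IVV library. Nlrp4a (1.83, unadjusted p = 0.0477, adjusted p = 1) and Nlrp4f (2.21, unadjusted p = 0.0311, adjusted p = 1) then passed the edgeR threshold, beside 3.43% of all genes tested. That fit leaves IVV with rRNA-poor libraries only, so growth in vitro and kind of library cannot be told apart in these calls.

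IVG-NT day 10 against IVV, which shares the IVV libraries with the comparison above, also had 0 of the 9 genes past the threshold (3.29% of all genes tested). The log2 fold change was 0.99 for Nlrp4f, 0.88 for Nlrp4a and 0.75 for Nlrp4b, with SEs from 0.80 to 0.89, and it lay from -0.40 to 0.11 for the other 6. All 9 overlapped, against 11.6% of all genes tested that did not. Among rRNA-poor libraries the single IVG-NT day 10 library lay below both IVV libraries for Nlrp14 (724 against 1371 and 1342), Nlrp9a (87.5 against 184 and 182) and Nlrp9b (199 against 357 and 356). It also did so for Nlrp4e (39.0 against 98.1 and 85.8), Nlrp4b (65.9 against 93.6 and 104) and Nlrp9c (426 against 622 and 635). For Nlrp4f (475 against 313 and 340) and Nlrp4c (6.57 against 6.35 and 5.89) it lay above both, and for Nlrp4a between them. The share of all genes tested with such an order was not counted. Among rRNA-rich libraries these genes came to -0.08, 0.36 and -0.02 on the log2 scale, and 0 of the 9 passed (1.53% of all genes tested), again with 1 IVV library and the spread of the other groups. Without IVV replicate 3, Nlrp4a (1.88) and Nlrp4f (2.36) again passed the DEG threshold, beside 3.7% of all genes tested. Here too IVV was left with rRNA-poor libraries only, and kind of library cannot be told apart from growth in vitro.

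At day 10 the fitted effect of NT-4 lay near 0 for each of the 9 genes, with wide errors. For IVG-NT against IVG day 10 the log2 fold changes of the 9 genes lay between -0.06 and 0.17, with SEs from 0.58 to 1.27, 0 genes passed the threshold (1.24% of all genes tested) and all 9 overlapped (3.59% of all genes tested did not). In the same-numbered pairs, 0 of the 9 moved in 1 direction in all 3 pairs, where 21% of all genes tested did. The smallest unadjusted p in edgeR's test was 0.774, and 0 of the 9 had an unadjusted p under 0.05. Among rRNA-rich libraries, 2 against 2, 0 genes passed (0.109% of all genes tested), and Nlrp4a, Nlrp4b and Nlrp4f came to 0.11, 0.15 and 0.16 with SEs from 0.21 to 0.33. The rRNA-poor libraries, 1 against 1, differed most in Nlrp4e, at 39.0 in IVG-NT against 107 in IVG.

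**Figure D5:**
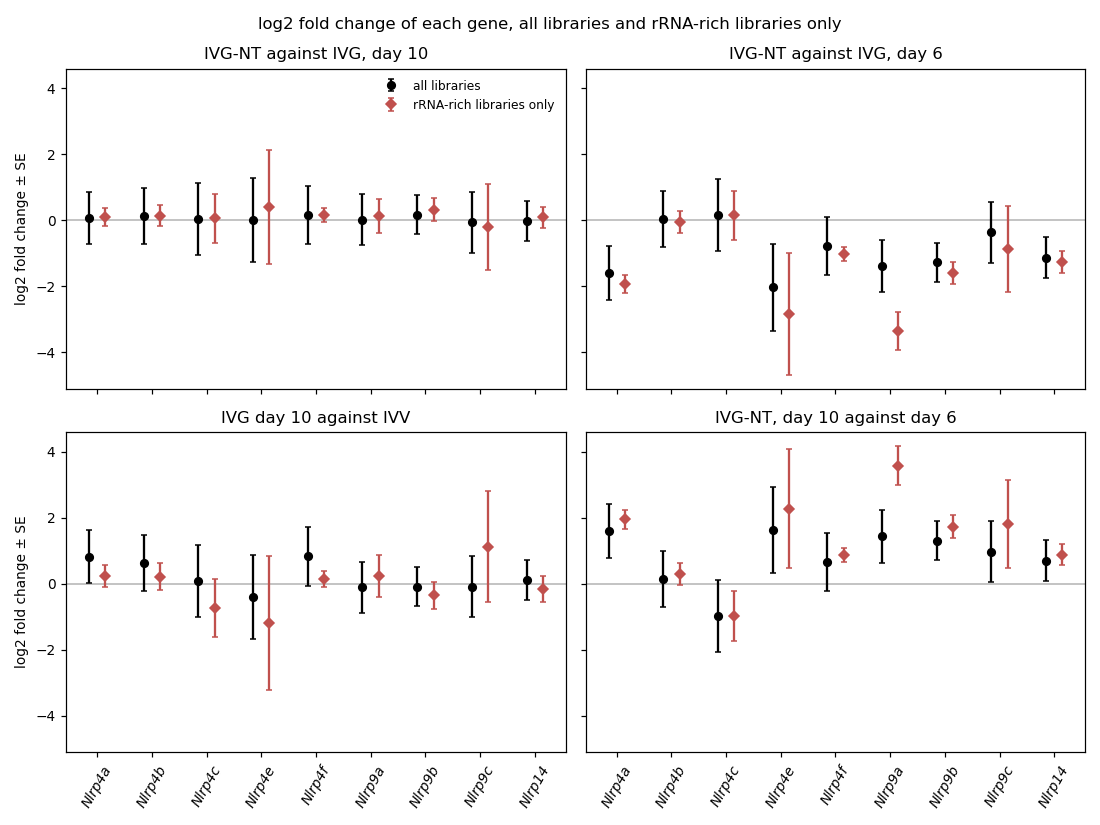
log2 fold change of each gene (points) with its SE (bars) in 4 comparisons (IVG-NT against IVG at day 10 and at day 6, IVG day 10 against IVV, and IVG-NT day 10 against day 6), fitted on all libraries (black circles) or on rRNA-rich libraries only (red diamonds). At day 10 the effect of NT-4 lay near 0 for all 9 genes, and at day 6 the points for all libraries lay below 0 for 7 genes.

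At day 6, 7 of the 9 genes were lower on average with NT-4, and Nlrp9b was the only one past the DEG threshold. Its log2 fold change for IVG-NT against IVG was -1.28 (SE 0.59, edgeR's quasi-likelihood test, unadjusted p = 0.0462, adjusted p = 0.424), beside 11.6% of all genes tested past the threshold and 4.83% in this direction. Nlrp9b was also the only 1 of the 9 whose libraries did not overlap, at 170 to 216 normalized CPM in IVG-NT and 300.1 to 647 in IVG, where 8.45% of all genes tested did not overlap and 7.44% did so in this direction. The other genes gave -2.03 (SE 1.32) for Nlrp4e, -1.59 (SE 0.82) for Nlrp4a, -1.38 (SE 0.79) for Nlrp9a, -1.14 (SE 0.62) for Nlrp14 and -0.78 (SE 0.89) for Nlrp4f, none past the threshold. Nlrp9c, Nlrp4b and Nlrp4c lay between -0.37 and 0.18. The median was -1.14 over the 9 genes and -0.27 over all genes tested. The latter came to 0.00 with RLE size factors, and under these 0 of the 9 genes passed.

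Among rRNA-rich libraries, where IVG-NT day 6 consists of the 2 shallow ones, 5 of the 9 genes were past the threshold, beside 18.1% of all genes tested. These were Nlrp9a (-3.35, SE 0.58), Nlrp4a (-1.93, SE 0.28), Nlrp9b (-1.59, SE 0.35), Nlrp14 (-1.26, SE 0.33) and Nlrp4f (-1.03, SE 0.21), of which Nlrp4a had an adjusted p of 0.0477 in edgeR's test (0.348% of all genes tested passed this) and the other 4 from 0.0646 to 0.127. In the rRNA-poor pair, 1 library against 1 and both deep, Nlrp9a had 147 in IVG-NT against 134 in IVG, Nlrp4a 398 against 487, Nlrp4f 626 against 487, Nlrp9b 193 against 300.1 and Nlrp14 712 against 1359. Of these 5, Nlrp4a, Nlrp9b and Nlrp14 thus lay lower with NT-4 in both kinds of library, while Nlrp9a and Nlrp4f did so in the shallow libraries only. For the rRNA-poor kind this rests on 1 library against 1. The share of all genes tested that were lower in both kinds was not counted. Nlrp4e had the opposite order in the rRNA-poor pair, at 43.6 in IVG-NT against 11.6 in IVG. With the shallow libraries left out, IVG-NT day 6 was a single library that is assumed to vary like the other groups. This library was rRNA-poor, whereas IVG day 6 kept libraries of both kinds. NT-4 and kind of library therefore cannot be told apart in that fit. Nlrp9b then came to -1.18 (SE 0.85), Nlrp4a to -1.84 (SE 1.34), Nlrp14 to -1.75 (SE 1.02) and Nlrp9a to -0.02 (SE 0.67), and 0 of the 9 genes passed with these wider errors. The number of genes detected was 10991 and 13338 in the shallow libraries against 15483 to 22163 in IVG day 6, and its part in these differences was not tested.

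Between day 6 and day 10, IVG oocytes had 0 of the 9 genes past the threshold (2.9% of all genes tested) and all 9 overlapped (7.42% of all genes tested did not). The largest log2 fold changes for day 10 against day 6 were -0.86 (SE 1.10) for Nlrp4c and 0.66 (SE 0.92) for Nlrp9c, and the other 7 lay from -0.43 to 0.07. Same-numbered libraries of these groups were of the same kind, and whether they share an experiment is not given. Day 10 lay below day 6 in 3 of 3 such pairs for Nlrp4c (32.2 against 52.0, 21.9 against 47.7 and 6.71 against 10.55 normalized CPM), Nlrp14, Nlrp4f and Nlrp9b. Of all genes tested, 27.1% moved in 1 direction in all pairs and 11.8% were lower in all. With the pairs as a block 0 of the 9 passed either. Among rRNA-rich libraries 0 of the 9 passed (1.77% of all genes tested). There Nlrp9c came to 1.14, with 583 and 502 normalized CPM at day 10 against 175 and 309 at day 6, and in the rRNA-poor pair it had 334 against 417. Nlrp4e had 107 in the rRNA-poor library of day 10 and 11.6 in that of day 6, and the reverse order of means among rRNA-rich libraries (-0.97, SE 1.73).

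In IVG-NT oocytes 8 of the 9 genes were higher at day 10 than at day 6 on average, and Nlrp9b alone passed the DEG threshold (1.29, SE 0.59, edgeR's test, unadjusted p = 0.0438, adjusted p = 0.388), beside 12.7% of all genes tested and 5.45% in this direction. This comparison shares the IVG-NT day 6 libraries with the one above. Nlrp4e gave 1.63 (SE 1.30), Nlrp4a 1.58 (SE 0.82), Nlrp9a 1.43 (SE 0.79), Nlrp9c 0.96 (SE 0.93), Nlrp14 0.69 (SE 0.62), Nlrp4f 0.65 (SE 0.89) and Nlrp4c -0.99 (SE 1.10), and none of these passed. All 9 overlapped, where 11% of all genes tested did not. The median over all genes tested was 0.40, and 0.04 with RLE size factors. Among rRNA-rich libraries 3 genes passed, Nlrp9a (3.58), Nlrp4a (1.94) and Nlrp9b (1.72), beside 19.5% of all genes tested, and Nlrp4a and Nlrp9a had adjusted p-values of 0.0372 and 0.0480 by edgeR (0.868% of all genes tested passed). The rRNA-poor pair gave 199 at day 10 against 193 at day 6 for Nlrp9b, 384 against 398 for Nlrp4a and 87.5 against 147 for Nlrp9a.

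Whether the effect of NT-4 differed between the days was tested as an interaction. Day 10 minus day 6, the difference of the log2 effects was 2.05 (SE 1.82) for Nlrp4e, 1.65 (SE 1.13) for Nlrp4a, 1.45 (SE 0.83) for Nlrp9b, 1.40 (SE 1.10) for Nlrp9a, 1.12 (SE 0.87) for Nlrp14 and 0.95 (SE 1.25) for Nlrp4f. No gene of the 9 passed the threshold (6.37% of all genes tested), and the smallest unadjusted p in edgeR's test was 0.0995. Among rRNA-rich libraries 5 of the 9 passed it, the same 5 as for day 6 there, beside 11.8% of all genes tested, with adjusted p-values from 0.173 to 0.347.

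Over 15 libraries, Pearson's r of log2 CPM was 0.68 to 0.94 between Nlrp4a, Nlrp4b, Nlrp4c and Nlrp4f (6 pairs) and 0.79 to 0.86 between Nlrp4e, Nlrp9a and Nlrp9c (3 pairs), while it ran from -0.38 to 0.37 between these sets (12 pairs). The sets were chosen after these values had been seen, and they did not stand apart within kinds. The first set gave -0.60 to 0.95 over 9 rRNA-rich libraries and -0.04 to 0.65 over 6 rRNA-poor ones, the second gave 0.80 to 0.95 and 0.29 to 0.73, and pairs between the sets gave -0.50 to 0.92 and -0.90 to 0.87. Nlrp9b and Nlrp14 gave 0.81 over all libraries, 0.71 over the rRNA-rich and 0.97 over the rRNA-poor ones. The libraries of a kind share their rRNA content and, for the shallow pair, low depth.

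The genes whose log2 CPM followed the mean standardized profile of the 9 most closely, among 8825 others with a mean of at least 10 normalized CPM, were Tgfbr3 (r = 0.98 over 15 libraries), Kdm2b (0.97), Polr2a (0.97), Gm11476 (0.97) and Fbxl14 (0.97). Over the 9 rRNA-rich libraries these r were 0.96 to 0.99. Over the 6 rRNA-poor ones Tgfbr3 had 0.94, Kdm2b 0.78, Fbxl14 0.77, Polr2a 0.70 and Gm11476 0.50.

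Near-identical copies set a limit on how far reads of single members can be told apart. Of all windows of 100 bases in the transcripts of Nlrp4e, 11.5% occurred identically in another annotated gene, for the most part in the pseudogene Gm8486 and its like, against 2.11% for Nlrp9b, 0.844% for Nlrp4c, 0.820% for Nlrp9a, 0.229% for Nlrp9c, 0.114% for Nlrp4f and none for Nlrp4a, Nlrp4b and Nlrp14. Among the 9, the longest transcripts were identical over 92.8% of the shorter one for Nlrp4c and Nlrp4e and 87.8% for Nlrp9a and Nlrp9c. Nlrp4a had 84.8% with Nlrp4e and 84.1% with Nlrp4c, and Nlrp9a had 83.1% with Nlrp9b. Nlrp4f had 93.9% with Nlrp4g, a copy outside the 9 with a mean of 408 normalized CPM, though without a shared window of 100 bases. By the share of such windows, the values of Nlrp4e are the least certain of the 9. Nlrp9b also overlaps the pseudogene Gm18877 on the same strand, Nlrp4b holds the sense-intronic Gm45379 and Nlrp4e holds the pseudogene Krt8-ps, and how overlapping genes were counted is not given in the sources used here.

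Other NOD-like receptor genes were few and mostly low in these oocytes. Of 21 listed, 14 passed the filter, led by Nlrp5 (mean of 1185 normalized CPM over the 15 libraries), a scaffold of the subcortical maternal complex, by Nlrp4g (408), and by Nlrp2 (305). For IVG-NT against IVG day 6, 1 of the 14 was past the threshold upward (Naip6) and 2 downward (Nlrp2 and Nlrp6), beside 11.6% of all genes tested, with a list median of -0.21 beside -0.27. Nlrp2, a maternal gene of this branch, had 85.3, 129 and 103 normalized CPM in IVG-NT day 6 and 405, 450 and 192 in IVG day 6 (log2 -1.72, unadjusted p = 0.0280 in edgeR's test), so that it lay lower without overlap, as Nlrp9b did. It was higher at day 10 than at day 6 with NT-4 (1.84), where Nlrp12 and Nlrc5 were called lower and 12.7% of all genes tested were called, and Naip6 was called lower in the interaction. In IVG-NT day 6 Nlrp12 had 30.5, 21.2 and 0 normalized CPM, Nlrc5 43.4, 0 and 0, and Naip6 18.8, 28.7 and 0.636. Their high values were thus those of the shallow libraries. Against IVV, 1 of the 14 (Naip6, higher) was past the threshold for IVG day 10, and 3 (Naip6 higher, Nlrp6 and Nlrp10 lower) for IVG-NT day 10, beside 2.76% and 3.29% of all genes tested. None was called for NT-4 at day 10 or between the days in IVG. Naip6, Nlrp6 and Nlrp10 had mean levels of 3.82, 0.726 and 0.203 normalized CPM.

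Of 13 inflammasome genes, 9 passed the filter, led by Txnip (596), Dhx15 (57.1) and Ripk2 (21.6), and the adaptor Pycard was at or near 0 in most libraries. Pycard had 239 normalized CPM in IVG-NT day 6 replicate 1, 0 in the other IVG-NT day 6 libraries and at most 2.18 in the rest. The macrophage markers had their highest sum, 53.1, in the same library, and their part in the level of Pycard was not tested. Gsdmd, the pore-forming gasdermin, had 28.9 in IVG-NT day 6 replicate 2 and at most 1.19 elsewhere, and Dhx15, an RNA helicase, had 613 in the same library and at most 27.6 elsewhere. These 3 were the genes of the list called higher for NT-4 at day 6, lower for IVG-NT day 10 against day 6 and lower in the interaction (11.6%, 12.7% and 6.37% of all genes tested were called), and the high value of each was that of 1 shallow library. Pycard was also called lower for IVG-NT day 10 against IVV, and 0 of the 9 were called in the other comparisons.

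All 8 genes of the subcortical maternal complex list passed the filter, led by Zbed3 (7007), Padi6 (3481) and Ooep (1608). For NT-4 at day 6, 3 of the 8 were past the threshold downward, Uhrf1 (-2.84), Nlrp2 (-1.72) and Padi6 (-1.42), and 0 upward, beside 4.83% of all genes tested past it downward, with a list median of -1.07 beside -0.27 over all genes tested. For IVG-NT day 10 against day 6, 3 were past it upward, Uhrf1 (2.54), Nlrp2 (1.84) and Zbed3 (1.72), beside 5.45% of all genes tested past it upward. Uhrf1, a DNA methylation factor, was also called in the interaction (2.14), and Zbed3 was called higher for IVG-NT day 10 against IVV (1.37). None of the 8 was called in the other 3 comparisons. Of 8 annotated genes around the interferon pathway on which human NLRP4 is known to act, 7 were tested, led by Mavs (31.7), Becn1 (23.4) and Irf3 (16.7), and Irf7 alone was called, higher in IVG day 10 than in IVG day 6 at a mean of 0.209. Of 7 listed oocyte transcription factors, 6 were tested, led by Nobox (609), Lhx8 (202) and Figla (42.8), and 0 were called in any comparison. No gene of these 5 lists had an adjusted p under 0.05.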

How the data were processed

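Counts per Ensembl gene were taken from the tables the authors deposited, 1 per library, without normalization. Per the submitters' processing notes and the study's methods, reads with adaptor sequence or low quality were dropped and the rest aligned to mm10 with HISAT2. The counting program, its annotation and its use of strand are not given in the sources used here. The values are whole numbers and were read as raw counts. Groups and replicate numbers come from the sample titles. The in vivo libraries carry numbers 2, 3 and 4 in their titles, which were kept.

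All 15 libraries entered 1 model with a mean for each of the 5 groups (edgeR 4.0.16 in R 4.3.3). Genes were kept by filterByExpr at a minimum count of 10, scaled by TMM and tested by quasi-likelihood, with Benjamini-Hochberg adjustment over all 21009 genes tested per comparison. DESeq2 1.42.0 was an alternative. The fit was tested on simulated data with larger changes than those seen here and without rRNA-rich and rRNA-poor kinds. That test cannot show how well changes of the size seen here are found. Normalized CPM use TMM, FPKM use all counts of a library and the length of the union of exons (GENCODE vM21). Fold changes from 0.5 on the log2 scale are given singly and smaller ones as ranges. Upstream sequences come from RefSeq (GRCm38.p6). Motifs were searched in the 250 bases before each start with Python 3.11.15, not in the 50 bases after it as first planned, and CCAAT was added after the sequences had been seen. Of the gene lists, the 3 genes of highest mean level and every called gene are named. The members and lists were chosen with earlier results of these data known.

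Libraries of a group differed by 48.4 to 1605 in chi-square per degree of freedom, so none repeats another. PCR copies carry no molecular identifier, so counting error is a lower limit. Deviations from group means were correlated between same-numbered libraries. Every pair was over 0.1 for IVG-NT against IVG at day 10 (0.37, 0.41 and 0.73) and for IVG day 10 against day 6 (0.23, 0.15 and 0.54). This held for no other comparison. Same-numbered in vitro libraries were also of the same kind, rRNA-rich or rRNA-poor. By these correlations a shared experiment cannot be told apart from a shared kind. No label names a shared day or batch.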

Additional observations from a re-analysis of the deposited data

How the results depend on the processing

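For the 9 genes, the count past the DEG threshold was 0 for the effect of NT-4 at day 10 and for IVG day 10 against day 6 under every alternative run, leaving out single libraries included. Against IVV it was 0 under all alternatives except without IVV replicate 3, and ranged from 0 to 2 over left-out libraries for both day 10 groups. Without that library IVV held rRNA-poor libraries only. For NT-4 at day 6 the count of 1 became 0 with DESeq2, with RLE size factors, with only the compared groups, with the replicate block and without both shallow libraries, 3 (Nlrp4a, Nlrp9b and Nlrp14) with a term for rRNA-rich or rRNA-poor and 5 among rRNA-rich libraries. For IVG-NT day 10 against day 6 the count of 1 became 0 in the same 5 settings, 2 (Nlrp4a and Nlrp9b) with that term and 3 among rRNA-rich libraries, and for the interaction the count of 0 became 2 and 5. For Nlrp9b the fold change at day 6 was -1.17 with only the compared groups, -1.20 with the block, -1.18 without the shallow libraries and -0.81 with DESeq2 or RLE, and that of IVG-NT day 10 against day 6 was 1.22, 1.20, 1.17 and 0.74. Without the shallow libraries IVG-NT day 6 held its rRNA-poor library only, so NT-4 or day cannot be told apart from kind of library. Without the filter on low counts Nlrp4a took the place of Nlrp9b in both day 6 comparisons. The term gave 15.8%, 16.9% and 8.96% of all genes tested in these 3 comparisons.

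Leaving out single libraries gave 0 to 3 genes for NT-4 at day 6, 0 to 2 for IVG-NT day 10 against day 6 and 0 to 1 for the interaction. The highest counts came without IVG day 6 replicate 3 (Nlrp4a, Nlrp9b and Nlrp14, beside 11.2% of all genes tested) and without IVG-NT day 10 replicate 3 (Nlrp4a and Nlrp9b, beside 11.2%), and the count was 0 without replicate 1 of IVG-NT day 6 and without replicate 1 or 2 of the other group of either comparison. Replicate 3 was the only rRNA-poor library of each of these groups. Without it, NT-4 or day cannot be told apart from kind of library in these calls. Without IVG-NT day 6 replicate 2, Nlrp14 alone passed for NT-4 at day 6 and 0 passed for IVG-NT day 10 against day 6. Genes with an adjusted p under 0.05 numbered 0 in all fits but the following. Among rRNA-rich libraries there were 1 for NT-4 at day 6 and 2 for IVG-NT day 10 against day 6. Over left-out libraries they ranged from 0 to 1 in the day 6 comparisons and the interaction, the 1 being Nlrp9a without IVG-NT day 6 replicate 3 (-3.17, 3.21 and 3.18), beside 10.3%, 10.9% and 5.19% of all genes tested. That fit left IVG-NT day 6 with its shallow rRNA-rich libraries only. NT-4 or day cannot be told apart from depth and kind of library in it.

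With the replicate block, directions against IVV reversed for Nlrp4a (-0.40 in IVG and -0.36 in IVG-NT day 10), Nlrp4b (-0.82 and -0.71) and Nlrp4f (-0.81 and -0.59). Same-numbered libraries of IVV and the day 10 groups had correlations of -0.28 to -0.52 and were of opposite kinds. The block moved 0 calls in the comparisons where every pair had a correlation over 0.1. With the term for kind Nlrp4b reversed (-0.14 and -0.071), and without both shallow libraries Nlrp4c reversed for IVG-NT day 10 against day 6 (1.42). The latter fit sets the rRNA-poor library of IVG-NT day 6 against both kinds at day 10, so day and kind cannot be told apart. In the rRNA-poor pair Nlrp4c had 6.57 normalized CPM at day 10 against 7.22 at day 6. The cause of these reversals was not tested. Of 35 fold changes under 0.5, 2 to 16 changed sign in the settings over all comparisons. RLE size factors moved the median of all genes from -0.20 to -0.39 for IVG day 10 against IVV and from -0.19 to -0.36 for IVG-NT day 10. With 3 libraries a group and SEs of 0.58 to 1.32 for single comparisons, fold changes of the size seen here were mostly not detectable.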
